A study of Mus musculus with 16 samples.

Results

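The 9 genes described here carry out antigen presentation by MHC class I: the heavy chains H2-D1, H2-K1, H2-T23 and H2-M3, their light chain B2m, the peptide transporter subunits Tap1 and Tap2, the loading factor Tapbp (tapasin), and the transactivator Nlrc5. They were taken by symbol from a table of 53850 genes, and all 9 were among the 19594 genes that passed the filter on low values (at least 10 in at least 4 libraries). RNA came from microglia of the cortex of C57BL/6J mice, isolated by fluorescence-activated cell sorting. There were 4 groups of 4 libraries: males on control chow, males on PLX3397, females on control chow and females on PLX3397, with each chow given for 1 week. PLX3397 inhibits the receptor for colony-stimulating factor 1, which microglia need to survive, so the treated libraries come from the microglia that remained. The series text calls the mice young and adult. The dose in the chow, the sort gate, the ages in days and whether each library is a separate animal are not given in the sources used here. The p-values therefore measure the spread between these samples.

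MHC class I molecules show peptides from inside the cell to CD8+ T cells. A heavy chain folds in the endoplasmic reticulum with beta-2 microglobulin, the product of B2m, and is held by tapasin next to the TAP1-TAP2 transporter until a peptide from the proteasome is bound. H2-D1 and H2-K1 are classical heavy chains of the mouse, while H2-T23 (Qa-1) and H2-M3 are non-classical chains with a narrow choice of peptides. NLRC5 acts on class I promoters together with factors bound to a conserved module, and interferon and NF-kB add to this through nearby elements. Microglia are known to raise class I genes with interferon, ageing and disease.

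The promoters of 4 of these genes are shown because they share parts of the class I promoter module, while H2-D1, H2-K1 and B2m passed the test for a rise on PLX3397 in both sexes and H2-M3 in neither. Each stretch is the 200 bases before the RefSeq start site, 5′ to 3′, from the GRCm38.p6 build, which is an earlier build than the GRCm39 named for the deposited values. Capitals mark matches to motifs searched on both strands: the CRE core TGACG, the Y box ATTGG (read CCAAT on the other strand), the interferon element (GAAA, any 2 bases, GAAA), a shorter form of it (GAA, any 2 bases, GAAA), and the kB element (GGG, any 3 bases, TCCC). Overlapping matches were merged.
H2-D1 (chr17:35262894-35263093, plus strand): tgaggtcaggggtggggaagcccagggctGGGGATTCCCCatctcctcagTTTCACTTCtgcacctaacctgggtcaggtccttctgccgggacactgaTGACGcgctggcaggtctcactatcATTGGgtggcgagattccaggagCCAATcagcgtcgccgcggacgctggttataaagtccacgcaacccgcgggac
H2-K1 (chr17:34000348-34000547, minus strand): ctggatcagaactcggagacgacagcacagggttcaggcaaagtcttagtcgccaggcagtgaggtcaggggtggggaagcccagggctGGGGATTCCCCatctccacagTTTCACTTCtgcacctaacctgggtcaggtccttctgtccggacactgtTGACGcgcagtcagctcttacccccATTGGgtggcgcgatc
B2m (chr2:122147487-122147686, plus strand): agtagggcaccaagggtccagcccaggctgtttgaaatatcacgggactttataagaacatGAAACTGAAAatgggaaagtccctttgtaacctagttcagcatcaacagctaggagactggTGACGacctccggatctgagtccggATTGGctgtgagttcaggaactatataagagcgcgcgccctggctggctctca
H2-M3 (chr17:37270034-37270233, plus strand): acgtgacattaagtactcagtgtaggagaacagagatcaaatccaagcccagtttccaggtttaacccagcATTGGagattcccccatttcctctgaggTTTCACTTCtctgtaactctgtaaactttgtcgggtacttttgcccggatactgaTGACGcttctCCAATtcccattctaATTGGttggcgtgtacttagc
H2-D1 and H2-K1 had the kB match, the shorter interferon form, the CRE core and the Y box in the same order and with the same spacing. In both, 21 bases lay between the first bases of the kB match and the interferon form, 49 between the interferon form and the CRE core, and 25 between the CRE core and the Y box. The spacing of 25 bases from CRE core to Y box was also found in B2m and H2-M3. It was measured only to the nearest downstream Y box read ATTGG. In H2-M3 a Y box read CCAAT lies nearer, at -36 from the start site, between the CRE core at -46 and the ATTGG match at -21. The kB pattern used here had no match in these windows of B2m and H2-M3. Looser forms of the element were not searched, so its absence there is not shown. The letters gggaaagtccc in B2m and ggagattccc in H2-M3 come near the pattern. B2m had the full interferon element, with 61 bases to its CRE core, and H2-M3 had the shorter form, with 55.

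In the full window of 250 bases before to 50 after the start site, 7 of the 9 genes had a RefSeq promoter. Of these 7, the CRE core matched in 5, the Y box in 7, the interferon element in 2, its shorter form in 3 and the kB element in 2. Over all 32851 promoters of that length, the shares were 20.8%, 37.4%, 3.44%, 7.52% and 5.55%. The CRE core, Y box and kB element occurred together in H2-D1 and H2-K1, and in 0.49% of all promoters. This combination is not particular to those genes, since H2-Q4 and H2-Q7, class I chains outside the 9 genes, also had it. The other listed class I chains with a RefSeq promoter lacked it. The CRE core and the shorter form were set after the sequences were seen. A match is a description of the letters, not of binding. Tap2 and Nlrc5 had no entry in the promoter table.

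The deposited values are normalised read counts, which summed to between 32600000 and 44200000 per library. Microglia markers were high in every library, with Csf1r at 293096 or more, P2ry12 at 48658 or more and Tmem119 at 40651 or more. The summed level of 8 homeostatic microglia markers was 2143746 to 2317660 in male controls and 978287 to 1385849 in males on PLX3397. In females it was 2034626 to 2488757 on control chow and 1567404 to 1781420 on PLX3397. Past the test, 8 of 8 were lower on PLX3397 in males and 6 of 8 in females, against 7.52% and 2.67% of all tested genes. On PLX3397, 8 of 8 were higher in females than in males, against 4.28%. The sum over 13 T and NK cell markers was 47 to 165 in all groups, with 5 of them (Cd3e, Trbc1, Ncr1, Gzma and Gzmb) at 0 in all 16 libraries. Neutrophil markers stood apart in males on PLX3397, where the sum over 12 genes was 10696 to 75471 against 531 to 3668 in male controls, 203 to 271 in female controls and 1046 to 3493 in females on PLX3397. Of the 11 tested, 9 were higher on PLX3397 past the test in males and 6 in females, against 4.16% and 2.67% of all tested genes. The highest sum, 75471, belonged to male PLX3397 replicate 3. Summed markers of other cells also moved with the chow. Sums over 12 neural genes were 1592 to 2403 in male controls and 3506 to 4938 in males on PLX3397, and 1472 to 2158 and 2749 to 3710 in females. Over 8 monocyte genes they were 380 to 798 and 1054 to 7225 in males, and 425 to 550 and 267 to 656 in females. The sum over 11 border-associated macrophage markers was lower, at 2189 to 3449 against 845 to 1189 in males. In females it was 1908 to 4006 against 1095 to 1735. The sum over 8 endothelial markers was also lower, at 967 to 1704 against 407 to 570 in males and 1328 to 1462 against 522 to 823 in females. Only 3 endothelial markers were tested, with 1 lower past the test in each sex, where 7.52% and 2.67% of all tested genes were. In males 2 of those 3 had a positive change, and in females 0. Esam and Tek were at 0 in all 16 libraries. The part of all these markers in the results below was not tested. The Y-linked gene Ddx3y was at 2589 to 3307 in males and 2.5 to 18 in females, and Xist was at 516 in male control replicate 4 against 14.7 to 31.4 in the other male libraries. Results without male PLX3397 replicate 3 are given below, and leaving out both of these libraries is in the closing section.

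RNA of the classical chains H2-D1 and H2-K1 and of B2m rose in both sexes after PLX3397. Tap1, Tap2 and Tapbp did not pass the test as higher in the main fit. For so few genes this cannot be told from the share of all tested genes called higher, 4.16% in males and 2.67% in females. H2-D1 rose 2.47-fold in males and 2.39-fold in females, H2-K1 2.15-fold and 2.07-fold, and B2m 1.55-fold and 1.78-fold. Nlrc5 rose and Tap2 fell in males. In males 4 of the 9 genes were higher and 1 was lower past the test, against 4.16% and 7.52% of all tested genes, and 5 of 9 had groups that did not overlap, against 17.6%. In females 3 of 9 were higher past the test, against 2.67%, and 3 of 9 had groups that did not overlap, against 10.4%. The median log2 fold change of the 9 genes was 0.37 in males and 0.40 in females, beside 0.02 and 0.00 over all tested genes. Fold changes and SEs are on the log2(value + 1) scale, and adjusted p-values are two-sided, from limma with Benjamini-Hochberg adjustment over all tested genes and a threshold of 0.05. In these bulk libraries, more or fewer cells of a type and more or less RNA per cell cannot be told apart.

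**Figure D1:**
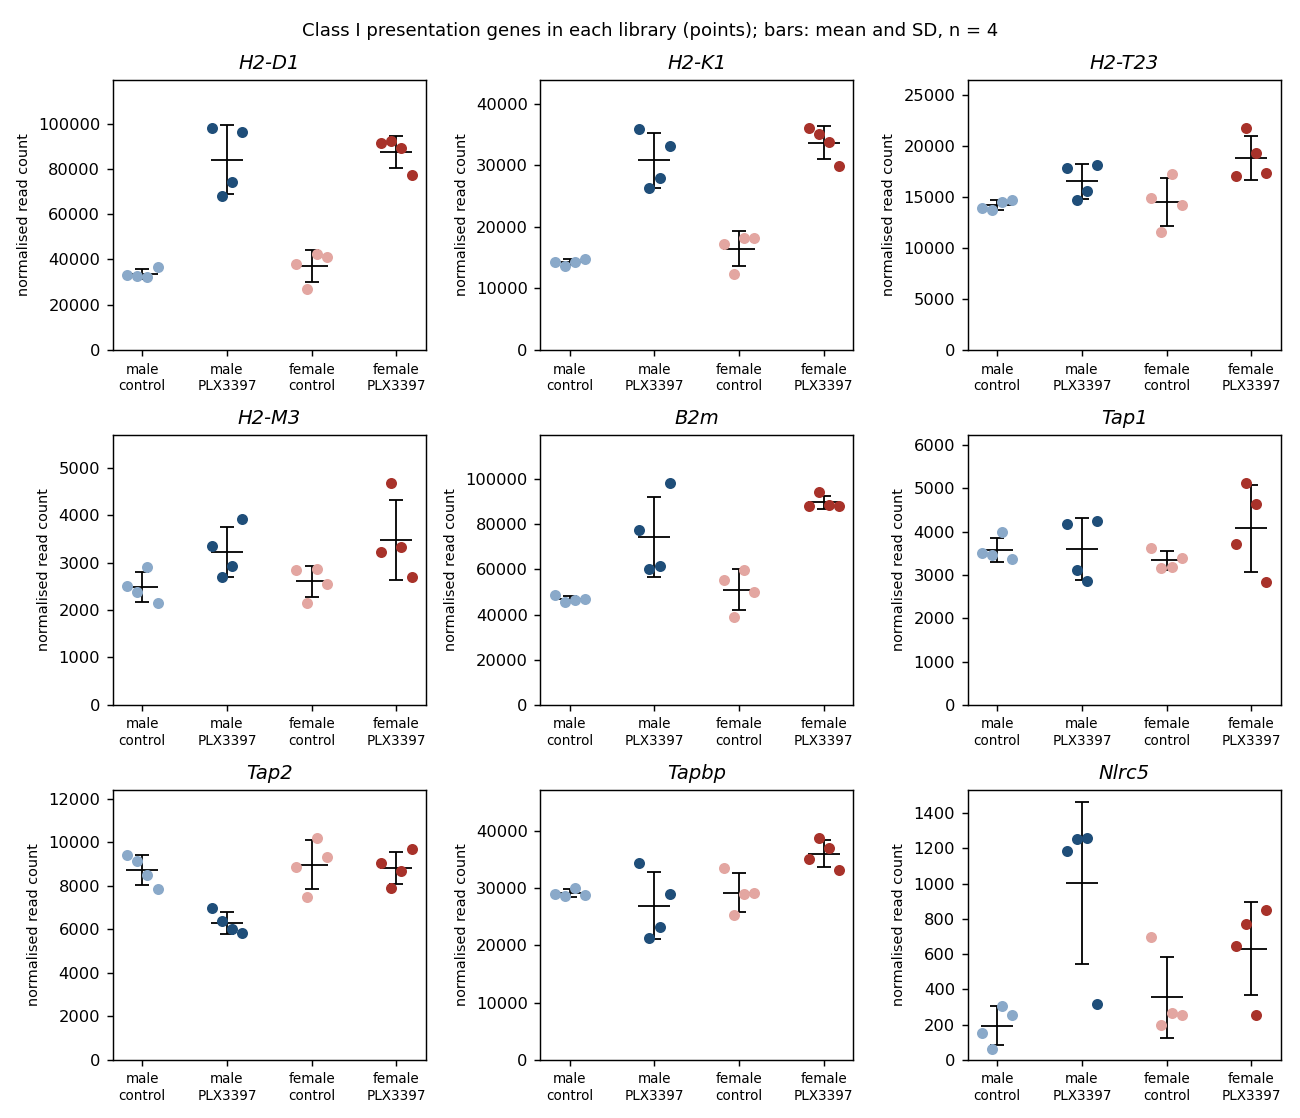
Normalised read counts of the 9 class I presentation genes (vertical axes, linear from 0) in each of the 16 libraries, by sex and chow; points are libraries, bars the mean and SD with n = 4. H2-D1, H2-K1 and B2m on PLX3397 lie above all controls of the same sex, and Tap2 is lower in the 4 libraries of males on PLX3397, at 5807 to 6978, than in any other library.

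H2-D1, a classical heavy chain, was read at 32976, 32658, 32026 and 36685 normalised counts in male controls and at 97834, 68017, 73966 and 96304 in males on PLX3397. Female controls had 37761, 27101, 42254 and 41217, and females on PLX3397 had 91393, 92236, 89106 and 77057. The lowest library on PLX3397, at 68017, was above the highest control of either sex, at 42254. H2-D1 changed on the log2 scale by 1.31 ± 0.136 in males (adjusted p = 8.75e-06, 95% interval 1.02 to 1.59) and 1.26 ± 0.136 in females (adjusted p = 2.93e-05, interval 0.97 to 1.54). Male PLX3397 replicates 2 and 3, which had the lower H2-D1 values of their group, also had the smallest library totals, 32641505 and 35073649 against 38968965 and 39584145, and the part of the totals in these values was not tested. Without replicate 3, the library with the most neutrophil marker RNA, the change in males was 1.36 ± 0.147 (adjusted p = 2.92e-05).

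H2-K1, the other classical chain, was at 14262, 13677, 14265 and 14841 in male controls and 35958, 26373, 27950 and 33082 in males on PLX3397. Its values were 17212, 12286, 18166 and 18214 in female controls and 35990, 35120, 33716 and 29888 in females on PLX3397. No library on PLX3397 overlapped a control. The log2 fold change was 1.10 ± 0.122 in males (adjusted p = 1.61e-05) and 1.05 ± 0.122 in females (adjusted p = 5.55e-05), and it was 1.15 in males without PLX3397 replicate 3 (adjusted p = 5.5e-05). The heavy chain genes share sequence: 12.8% of the 50-base stretches in H2-D1 transcripts and 9.63% of those in H2-K1 transcripts also occur in transcripts of other genes. How reads from such stretches were assigned is not given in the sources used here, so levels of single heavy chains carry that uncertainty.

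B2m encodes the light chain that all of these heavy chains need. It was at 48618, 45771, 46673 and 46833 in male controls and 77569, 60304, 61556 and 98142 in males on PLX3397. Counts in females were 55475, 38883, 59608 and 50135 on control chow and 88324, 94128, 88458 and 88283 on PLX3397. All 8 libraries on PLX3397 were above all 8 controls, and the treated males spread more widely, with an SD of 17700 against 2890 in treated females. The log2 fold change was 0.63 ± 0.137 in males (adjusted p = 0.00534) and 0.83 ± 0.137 in females (adjusted p = 0.00124). None of the 50-base stretches of B2m occurs in another gene.

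Of the 9 genes, the non-classical chains H2-T23 and H2-M3 did not pass the test in either sex. Class I chains outside the 9 genes did, among them H2-Q6, H2-Q7, H2-Q10 and H2-M2, which rose in both sexes and are described below. H2-T23, whose product presents leader peptides of classical class I chains to NK cell receptors, was at 13919, 13742, 14520 and 14655 in male controls and 17793, 14651, 15561 and 18170 in males on PLX3397. In females its values were 14919, 11550, 17288 and 14185 on control chow and 17035, 21708, 19282 and 17355 on PLX3397. Treated and control groups overlapped narrowly in each sex, and the log2 fold changes were 0.21 ± 0.113 in males (adjusted p = 0.267) and 0.39 ± 0.113 in females (adjusted p = 0.058). The call for H2-T23 depended on the scaling: with equal library totals, where the median of all genes moved from 0.02 to 0.18 in males, the adjusted p was 0.00782 in males and 0.0105 in females.

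H2-M3, which binds formylated peptides, was at 2505, 2375, 2914 and 2151 in male controls and 3347, 2702, 2941 and 3924 in males on PLX3397. Females had 2851, 2151, 2860 and 2560 on control chow and 3218, 4675, 3332 and 2702 on PLX3397. The groups overlapped in both sexes. The log2 fold changes were close, 0.37 ± 0.165 in males (adjusted p = 0.178) and 0.40 ± 0.165 in females (adjusted p = 0.213), and neither passed the test. With equal library totals the male value passed (adjusted p = 0.0226).

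Tap1 and Tap2 encode the subunits of the transporter that brings peptides into the endoplasmic reticulum, and they are near neighbours on chromosome 17. Tap1 was at 3497, 3458, 3986 and 3364 in male controls and 4187, 3118, 2871 and 4247 in males on PLX3397, and at 3615, 3154, 3173 and 3394 in female controls and 3719, 5115, 4633 and 2847 in females on PLX3397. Treated libraries lay on both sides of the controls. The log2 fold change of Tap1 was -0.01 ± 0.166 in males (adjusted p = 0.99, 95% interval -0.36 to 0.35) and 0.26 ± 0.166 in females (adjusted p = 0.484, interval -0.09 to 0.61), and over all alternatives it ranged from -0.09 to 0.15 in males, with a positive sign under each of the 3 other scalings.

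Tap2 fell in males. Its values were 9401, 9140, 8504 and 7851 in male controls and 6978, 6400, 6005 and 5807 in males on PLX3397, without overlap, a log2 fold change of -0.47 ± 0.103 (0.722-fold, adjusted p = 0.00605). Without PLX3397 replicate 3 the change was -0.45 (adjusted p = 0.0212), and with equal library totals it was -0.29 (adjusted p = 0.0445). Female values overlapped almost wholly, at 8856, 7480, 10184 and 9344 on control chow and 9034, 7877, 8670 and 9688 on PLX3397, with a change of -0.02 ± 0.103 (adjusted p = 0.958, 95% interval -0.24 to 0.20). The test of the difference between the sexes is given below.

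Tapbp encodes tapasin, which bridges the transporter and the empty class I molecule. Male controls were tightly grouped at 28948, 28573, 30071 and 28885, while males on PLX3397 were at 34332, 21348, 23191 and 29027. Female libraries had 33461, 25288, 29019 and 29222 on control chow and 35162, 38737, 36953 and 33250 on PLX3397. Treated males lay on both sides of their controls, and 1 treated female library was within the range of its controls. The log2 fold change was -0.14 ± 0.121 in males (adjusted p = 0.551), with a positive sign under quantile normalisation and equal library totals, and 0.31 ± 0.121 in females (adjusted p = 0.187, or 0.0472 with equal library totals). Exons of Zbtb22 overlap those of Tapbp on the same strand in the GRCm38 annotation, and Zbtb22 fell in males (log2 fold change -0.73 ± 0.169, adjusted p = 0.00842).

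Nlrc5, which has no DNA-binding domain of its own and is recruited to class I promoters, was the least abundant of the 9 genes. Male controls had 153, 62.9, 308 and 253 normalised counts, and males on PLX3397 had 1188, 1255, 1258 and 314. Replicate 4 of the treated males was just above the highest control, and the other 3 were well above it. The log2 fold change was 2.40 ± 0.565 (5.26-fold, adjusted p = 0.00973), and 2.22 without PLX3397 replicate 3 (adjusted p = 0.0342). Female values were 699, 197, 266 and 254 on control chow and 645, 772, 254 and 853 on PLX3397, which overlapped, and the change of 0.88 ± 0.565 did not pass the test (adjusted p = 0.481, interval -0.32 to 2.08).

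A non-coding RNA gene, 9330175E14Rik, lies on the opposite strand and overlaps exons of Nlrc5. Its mean was 60.8 in male controls and 291 in males on PLX3397 (log2 fold change 2.37 ± 0.452, adjusted p = 0.00213), and 80.6 and 139 in females (0.68 ± 0.452, adjusted p = 0.498). Reads of the 2 genes cannot be told apart where counting does not use strand, and the sources used here do not say whether it did.

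In the test of whether the response to PLX3397 differed between the sexes, 0 of the 9 genes passed, as did 0 of all 19594 genes (0%) by limma. At an unadjusted p under 0.05 there were 2010 genes, and 2 of the 9 were among them. Those 2 were Tap2, with a difference of 0.45 ± 0.146 (females minus males, unadjusted p = 0.007, adjusted p = 0.3), and Tapbp, with 0.44 ± 0.171 (unadjusted p = 0.0199, adjusted p = 0.381). For H2-D1 the difference was -0.05 ± 0.192, with a 95% interval of -0.46 to 0.36, for H2-K1 -0.06 ± 0.172 (-0.42 to 0.31) and for B2m 0.20 ± 0.194 (-0.21 to 0.61). Nlrc5 had the widest interval, -3.21 to 0.18 around -1.52, and its difference did not pass the test (adjusted p = 0.539).

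**Figure D2:**
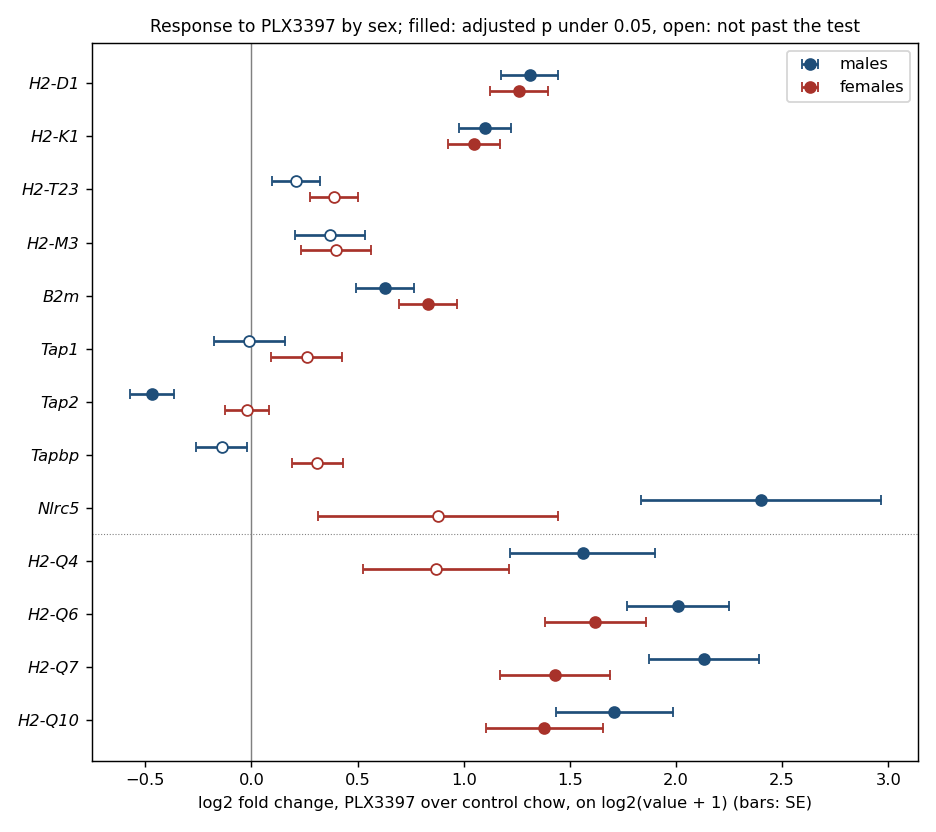
Log2 fold change on PLX3397 over control chow (horizontal axis, bars SE) for the 9 genes and, below the dotted line, 4 further class I chains, in males (blue) and females (red). Filled points passed the test and open points did not; the male and female values of H2-D1, 1.31 and 1.26, and of H2-K1, 1.10 and 1.05, lie side by side, while those of Tap2 are -0.47 and -0.02.

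Comparing the sexes on the same chow, 0 of the 9 genes passed on control chow in limma's test, where 0.0663% of all genes did (0.0153% higher and 0.051% lower in females), and 0 of the 9 had an unadjusted p under 0.05. On that chow 0 of 9 had groups that did not overlap, against 3.55%. On PLX3397, 2 of 9 were higher in females past the test, against 4.28% of all genes (1.15% were lower and 5.43% passed in all), and 1 of 9 had groups that did not overlap, against 12.1%. Tap2 was 0.49 ± 0.103 higher on the log2 scale (adjusted p = 0.0157), with every treated female above every treated male. Tapbp was 0.44 ± 0.121 higher (adjusted p = 0.045), with overlapping groups. The call was lost in 6 of 28 alternatives for Tap2 and in 19 of 28 for Tapbp. Both calls depended on the scaling: with equal library totals the adjusted p for Tap2 was 0.101, neither gene passed, and the share of called genes that were higher in females went from 78.8% to 34.3%. This comparison and the male response share the treated male libraries.

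Ratios within a library do not depend on a factor that all its genes share, and they are given as a description, with no test. The normalisation formula is not given in the sources used here, and any factor that differs between genes would remain in these ratios and in the levels per kilobase below. The ratio of H2-K1 to H2-D1 was 0.425 ± 0.0176 (SD, n = 4) in male controls and 0.369 ± 0.019 in males on PLX3397, and 0.445 ± 0.0119 and 0.385 ± 0.00701 in females. This small fall, -0.20 and -0.21 on the log2 scale, was nearly the same in both sexes, with no overlap between chows. B2m relative to H2-D1 fell from 1.4 ± 0.0895 to 0.883 ± 0.0987 in males and from 1.38 ± 0.113 to 1.03 ± 0.0794 in females.

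Tap2, Tapbp and Tap1 had the lowest values relative to their controls. Tap2 over H2-D1 went from 0.261 ± 0.0325 to 0.0767 ± 0.0144 in males, a log2 change of -1.78, and from 0.245 ± 0.0218 to 0.102 ± 0.017 in females, -1.27. Tapbp changed by -1.44 in males and -0.95 in females, and Tap1 by -1.31 in males, with mean ratios in females of 0.0924 on control chow and 0.0463 on PLX3397. H2-T23 (-1.09 and -0.87) and H2-M3 (-0.94 and -0.86) had smaller changes in males, and for each of these 7 ratios the treated and control groups of a sex did not overlap. The divisor H2-D1 itself rose by 1.31 in males and 1.26 in females, so a gene that did not change falls by about that much. Tap1 in males, at -0.01 before division, is such a case. The falls and the lack of overlap therefore largely restate the rise of H2-D1, and no share over all genes is given. Within the transporter, the ratio of Tap2 to Tap1 was 2.45 ± 0.263 in male controls and 1.79 ± 0.343 in males on PLX3397, without overlap, and 2.7 ± 0.38 and 2.31 ± 0.815 in females, with overlap.

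**Figure D3:**
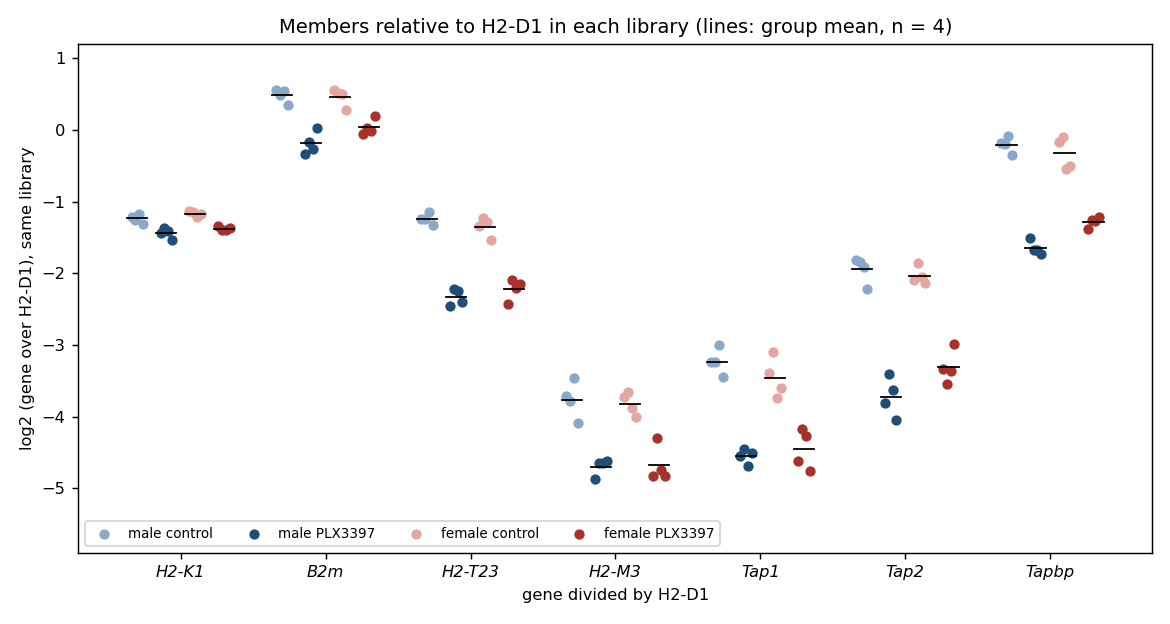
Log2 ratio of 7 genes to H2-D1 in the same library (vertical axis), by sex and chow; points are libraries and lines the mean of 4. For each gene the PLX3397 points of a sex lie below its control points, by 0.20 on average for H2-K1 and by 1.78 for Tap2 in males. H2-D1 itself rose on PLX3397, so an unchanged gene also lies lower.

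Levels can be compared between genes after division by exon length, taken from the GRCm38 annotation. In male controls the order per kilobase was B2m (54621 ± 1390), H2-D1 (13023 ± 815), Tapbp (8026 ± 181), H2-T23 (4918 ± 154) and H2-K1 (4854 ± 162), then Tap2 (2307 ± 183), H2-M3 (1729 ± 223), Tap1 (653 ± 50.9) and Nlrc5 (22.9 ± 12.8). H2-T23 and H2-K1 overlapped, and no other neighbours in this order did. In males on PLX3397, H2-K1 was at 10497 ± 1520 per kilobase, above every H2-T23 value, and H2-M3 at 2245 ± 372 was above every Tap2 value, 1536 to 1846. H2-K1 then overlapped Tapbp (7435 ± 1630), and Tapbp overlapped H2-T23 (5726 ± 591).

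Female controls had the same order but for H2-K1 (5606 ± 962) and H2-T23 (5014 ± 818), which again overlapped. Tap2 and H2-M3 (1812 ± 232) kept their order but overlapped at the edge. On PLX3397, H2-D1 reached 33908 ± 2730 per kilobase and B2m 104417 ± 3360. H2-K1 (11463 ± 917) overlapped Tapbp (9930 ± 650), and both were above every H2-T23 value (6523 ± 745). H2-M3 (2421 ± 585) and Tap2 (2332 ± 200) overlapped, unlike in treated males, where they did not. Tap1 (745 ± 183) and Nlrc5 (74.3 ± 31.3) stayed lowest.

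Of 20 other class I and class I-like chains listed, 19 were in the table and 13 were tested. Past the test, 5 were higher in males and 4 in females, against 4.16% and 2.67% of all tested genes. In both sexes 0 were lower, against 7.52% and 2.67%, and the median log2 fold changes were 0.28 and 0.15. Those higher in males were H2-Q4, H2-Q6, H2-Q7, H2-Q10 and H2-M2, and those higher in females were the same but for H2-Q4. H2-Q1 and H2-Q2 were too low to be tested. H2-Q7 (Qa-2) went from 527, 362, 553 and 723 in male controls to 2413, 2338, 2481 and 2040 in males on PLX3397 (2.13 ± 0.259, adjusted p = 4.02e-05). Female values of H2-Q7 were 458, 498, 849 and 1124 on control chow and 1968, 1845, 2192 and 1449 on PLX3397 (1.43 ± 0.259, adjusted p = 0.00276). Its groups did not overlap in either sex.

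H2-Q6 rose 4.02-fold in males (adjusted p = 3.37e-05) and 3.06-fold in females (adjusted p = 0.000524), and H2-Q10 3.27-fold (adjusted p = 0.000524) and 2.61-fold (adjusted p = 0.00571). H2-Q4, at 35.2, 110, 36.8 and 100 in male controls and 159, 209, 189 and 183 in males on PLX3397, rose in males (1.56 ± 0.343, adjusted p = 0.00605), while in females its change of 0.87 ± 0.343 did not pass (adjusted p = 0.188), although its groups did not overlap. For none of these 4 did the response differ between the sexes past the test, the lowest adjusted p being 0.53 for H2-Q7. Between 19% (H2-Q10) and 32% (H2-Q6) of their 50-base stretches occur in other genes, so how their reads divide among them is uncertain. Exons of the antisense gene Gm11131, at 71.44 to 188.75, overlap those of H2-Q4 in the GRCm38 annotation. The limit on telling reads apart by strand, given for Nlrc5, therefore holds for H2-Q4 too.

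H2-M2, a class I chain of the M region, was near 0 in controls, at 1.88, 2.91, 0 and 24.5 in males and 4.21, 0, 2.49 and 2.07 in females. On PLX3397 it was at 175, 88.5, 54.5 and 35 in males and 8.61, 218, 125 and 91.3 in females, above every control of the same sex. The log2 fold change was 4.19 ± 1.01 in males (adjusted p = 0.0112) and 4.68 ± 1.01 in females (adjusted p = 0.00965). At such low values the size depends on the pseudocount, with 3.07 in males and 3.48 in females at a pseudocount of 5, and on single libraries. In males it was 3.50 without control replicate 3 and 5.06 without control replicate 4, and in females 5.64 without PLX3397 replicate 1. In males it falls outside the naming rule and was singled out after its values were seen. H2-M9 was listed at 0 in all 16 libraries.

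The list for class I folding, loading and peptide trimming held 12 genes. Of these, 0 were higher and 4 lower in males past the test (median -0.30), against 4.16% and 7.52% of all tested genes. In females 0 passed (median 0.02), where 5.34% of all genes were called. A count of 0 among 12 cannot be told from shares of 4.16% or 5.34%. The 4 lower in males were Ide, a cytosolic peptidase (-0.69 ± 0.156, adjusted p = 0.00774), Pdia3, the thiol oxidoreductase of the loading complex (-0.46 ± 0.124, adjusted p = 0.021), Bcap31, a sorting receptor (-0.42 ± 0.122, adjusted p = 0.0337), and Canx, the chaperone calnexin (-0.42 ± 0.131, adjusted p = 0.0478). Pdia3, Bcap31 and Canx lost the call when male PLX3397 replicate 2 or 3 was left out, with adjusted p from 0.0659 to 0.122. Over all 28 alternatives Pdia3 lost its call in 8, Bcap31 in 10 and Canx in 21, while Ide lost it in 1.

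Immunoproteasome subunits make peptides suited to class I. The list used here also holds proteasome activators and Pomp, which are not subunits of it: Psmb8, Psmb9, Psmb10, Psme1, Psme2, Psme3 and Pomp. None of these 7 genes passed limma's test in either sex, where 11.7% of all tested genes did in males and 5.34% in females. The medians were -0.01 in males and 0.15 in females. Psmb8 and Psmb9 lie beside Tap1, in the order Psmb9, Tap1, Psmb8, Tap2. Exons of Psmb9 overlap those of Tap1 on the opposite strand in the GRCm38 annotation, and Psmb9 was at 3030 to 4318. The limit on telling reads apart by strand, given for Nlrc5, therefore holds for Tap1 and Psmb9 too. Psmb9 changed by 0.01 ± 0.119 in males and 0.02 ± 0.119 in females, and Psmb8 by 0.01 ± 0.127 and 0.15 ± 0.127. Neither had the fall that Tap2 had in males.

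Among 26 regulators of class I genes (transcription factors, interferons, their receptors and signalling genes), 24 were tested. In males 2 were higher and 3 lower past the test, where 4.16% and 7.52% of all genes were, and in females 1 was higher and 1 lower, where 2.67% of all genes were in each direction. Counts this small are near those shares. Nfkb1, the p105 and p50 NF-kB subunit gene, fell from 8863 ± 166 to 4487 ± 357 in males (-0.99 ± 0.106, adjusted p = 1.17e-05) and from 9111 ± 1120 to 5926 ± 729 in females (-0.62 ± 0.106, adjusted p = 0.00166). Ifnar1, a chain of the type I interferon receptor, rose by 0.47 ± 0.122 in males (adjusted p = 0.017, lost without male control replicate 2 or male PLX3397 replicate 1) and by 0.60 ± 0.122 in females (adjusted p = 0.00645).

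Stat2, a transducer of type I interferon signals, rose in males (0.67 ± 0.158, adjusted p = 0.00972, or 0.0678 with both of the male libraries that stood apart left out), and in females its change of 0.53 ± 0.158 missed the threshold (adjusted p = 0.0634). Ifngr1, the ligand-binding chain of the interferon gamma receptor, fell in males (-0.54 ± 0.109, adjusted p = 0.00339) and changed by -0.08 ± 0.109 in females (adjusted p = 0.795). The third gene lower in males was Nfyb, a subunit of the Y box factor (-0.80 ± 0.214, adjusted p = 0.021), named after its values were seen, whose call was lost in 5 alternatives. Ifng itself was listed at 0 in all 16 libraries.

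**Figure D4:**
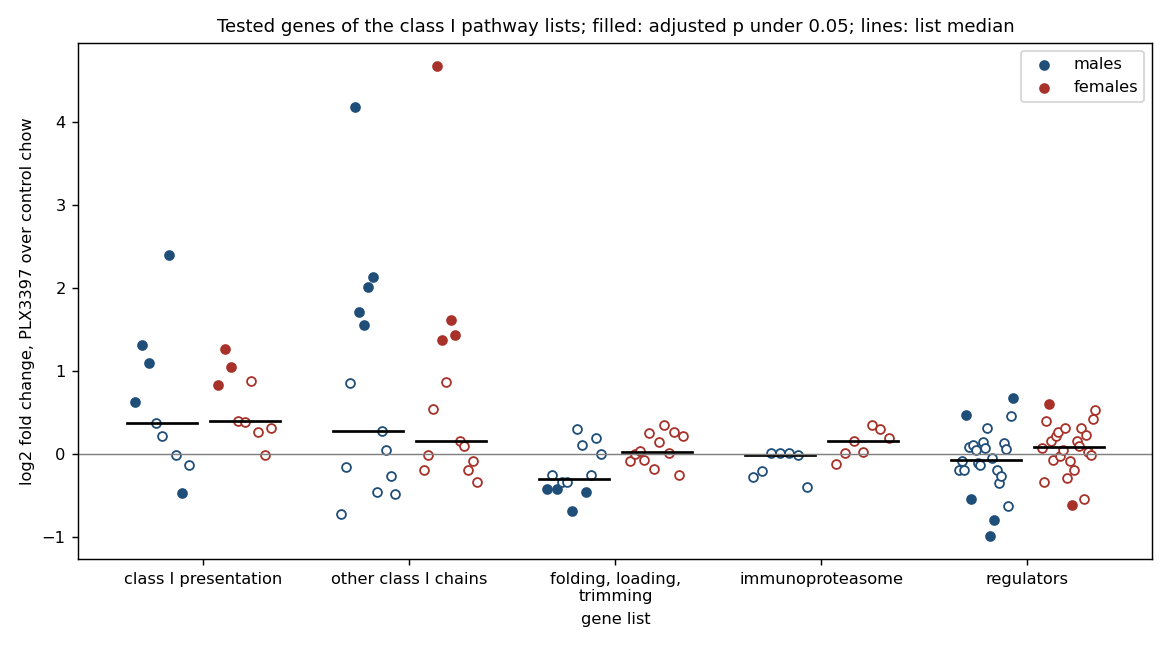
Log2 fold change on PLX3397 over control chow (vertical axis) for each tested gene of 5 lists, males in blue and females in red; filled points passed the test, and lines are list medians. The medians of the 9 class I presentation genes are 0.37 and 0.40, while those of the folding, loading and trimming list are -0.30 and 0.02.

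Between the sexes on PLX3397, 3 of the 12 folding and trimming genes (Canx, Hspa5 and Pdia3) were higher in females past the test. So were 1 of the 7 genes of the immunoproteasome list (Psme3, listed as an activator) and 3 of the 24 regulators (Rela, Ifngr1 and Nfkb1). Over all tested genes the share was 4.28%, and counts as small as 1 of 7 cannot be told from it. The log2 differences ran from 0.40 ± 0.106 for Nfkb1 (adjusted p = 0.0405) to 0.64 ± 0.115 for Rela (adjusted p = 0.00718). All but Rela lost the call with quantile normalisation, and all 7 lost it when the groups were compared alone. None of the 13 tested class I chains outside the 9 genes passed in this comparison, where 5.43% of all genes did.

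Across the 16 libraries the gene most like H2-D1 was H2-K1 (Pearson r = 0.995 on the log2 scale), followed by Fth1 (0.991), Cxcl16 (0.987), Ctsb (0.986) and Anxa5 (0.978), out of 11839 genes with a mean of at least 100. After each group's mean was subtracted, H2-K1 again came first (0.974), then Lars2 (0.950), Emc10 (0.931), Ctsc (0.913) and Lgmn (0.913). These correlations are descriptions over libraries that differ in scaling and, for the first set, in chow. Fth1, the ferritin heavy chain, changed by 1.16 in males and 1.17 in females, and the chemokine gene Cxcl16 by 1.97 and 2.01.

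For H2-M3, a non-classical chain, the closest genes over 16 libraries were Sri (0.877), H2-T23 (0.874), Tspo (0.871), Tor3a (0.871) and Ehbp1l1 (0.870). The closest gene to Tap1 was Fuca2 (0.781) over the 16 libraries and Nmnat1 (0.854) after group means were subtracted. For Nlrc5 it was Arhgap19 (0.900) over the 16 libraries and Gnb1l (0.877) after group means were subtracted, with Arhgap19 next (0.859). Nlrc5 and H2-D1 had r = 0.65 over the 16 libraries and -0.10 within groups, whereas H2-D1 and B2m had 0.94 and 0.83. Tap1 and Tap2 had -0.08 and -0.25.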

How the data were processed

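Microglial RNA was amplified with a low-input cDNA kit and tagmented, per the labels' protocols. GRCm39, Salmon 1.5.2, featureCounts 2.0.1 (Subread), STAR 2.7.9a and bcl2fastq 2.19.1 are listed, without roles, per the submitters' processing notes. The deposited signal is the authors' normalised read count per gene, by a formula not given in the sources used here. Low values lay near multiples of a step per library, which puts depth at about 22300000 to 78500000 reads, but not at whole reads for each gene, so no count model was used. The median SE was 0.292.

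For 19594 genes reaching 10 in 4 or more libraries, log2(value + 1) was fitted with limma 3.58.1 in R 4.3.3 (group means, all 16 libraries, trend, Benjamini-Hochberg adjustment), after tests on simulated data. Comparisons were chow within sex, the difference of these responses, and sex within chow. The members and lists were chosen with earlier results of these data known. Genes named were the 9, up to 4 called genes per list and comparison (smallest p, the larger group mean reaching 50), neighbours, genes at 0, and the closest genes by correlation. Symbols came from a GRCm38 annotation for 51029 of 53850 identifiers. Alternatives covered pseudocounts, filters, scalings, fits and libraries left out. Figures used matplotlib 3.10.9 in Python 3.11.15.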

Additional observations from a re-analysis of the deposited data

Results flagged for a closer look

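In groups of 4, a library was picked out when its gap to the nearest other exceeded 0.829 of the group's range (Dixon's test); 104 groups of 26 genes were examined, of which chance picks about 1 in 20, and 8 were picked out. H2-K1 was at 12286 in female control replicate 2, against 17212 to 18214 in the other 3. B2m was at 94128 in female PLX3397 replicate 2, against 88283 to 88458, a small gap among close values. Nlrc5 was at 314 in male PLX3397 replicate 4, against 1188 to 1258, and at 699 in female control replicate 1, against 197 to 266. H2-M2 was at 24.5 in male control replicate 4, the male library with Xist at 516, against 0 to 2.91. Nfkb1 was at 7448 in female control replicate 2, against 9471 to 9839. Nfyb was at 451 in female control replicate 1, against 783 to 797, and at 892 in female PLX3397 replicate 4, against 709 to 740.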

How the results depend on the processing

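Of the alternatives for the 9 genes, 1214 values kept their side of the threshold, 12 gained a call and 25 lost it, and 0 of the called values changed sign. In males H2-D1, H2-K1, B2m, Nlrc5 and Tap2 kept their calls in all 28 alternatives (highest adjusted p 0.000226, 0.000333, 0.0252, 0.0388 and 0.0445), and in females H2-D1, H2-K1 and B2m did (0.000909, 0.002 and 0.0101). Males had 4 of the 9 genes higher, but 5 with quantile normalisation (H2-T23 added, adjusted p = 0.00494) and 6 with equal library totals (H2-T23, 0.00782, and H2-M3, 0.0226). Females had 3, but 5 of the 9 genes higher with quantile normalisation or equal library totals, which added H2-T23 and Tapbp. The number of genes called in males was 1517 in place of 2289 when the library with the most neutrophil RNA (male PLX3397 replicate 3) and the one with high Xist (male control replicate 4) were both left out; the cause was not tested. The share of called genes that were higher in males was 35.6%, 45.7% with upper-quartile scaling, 46.7% with quantile normalisation and 59.5% with equal library totals. For the difference between responses, 1 gene was called with a pseudocount of 5 and 2 without both libraries.

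For females against males on PLX3397, 1064 genes were called, but 669 without the filter, 606 with upper-quartile scaling, 467 with quantile normalisation, 571 with equal library totals, 44 with the groups compared alone, 503 without the trend and 339 without both libraries. The share of these calls that were higher in females was 78.8%, and 43.7%, 52.7% and 34.3% with the 3 scalings in that order. Of the 9 genes, 1 was higher without the filter and 0 in the other 6 settings; the cause was not tested. Leaving out each library in turn gave 1727 to 2312 genes in males, 775 to 1145 in females with 3 to 4 of the 9 higher, 0 to 6 for the difference between responses, 11 to 20 between sexes on control chow (20 without male control replicate 1), and 324 to 1232 on PLX3397 with 1 to 3 of the 9 higher. The lowest, 324, was without male PLX3397 replicate 2, and 462, 486 and 680 were found without male PLX3397 replicate 3, female PLX3397 replicate 3 and female PLX3397 replicate 2. Same-numbered samples did not deviate together (r from -0.04 to 0.12, and the best match had the same number in 7 of 48 cases), and the main fit used no pairing by number. The labels do not say what the numbers stand for, and these correlations cannot exclude a shared day or batch. With the number as a replicate block, 762 genes were higher and 1374 lower in males, and none of the calls of the 9 genes changed. No log2 ratio between the genes moved by more than its spread with a pseudocount of 1. Depth is known only approximately, so values near 0, such as those of H2-M2, are the least precise.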
